A study of Mus musculus with 10 samples.

Results

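Glucose breakdown in the kidney of mice kept at high altitude was followed through 32 named genes that encode the enzymes of glycolysis, the first enzyme of fructose breakdown, the lactate dehydrogenases and the monocarboxylate transporters. Members were the rows whose gene name is on this list, which gave 33 rows of 55952, because the name Aldoa stands on 2 rows. Kidneys of C57BL/6 mice were taken after 30 days at an altitude of 400 m (control, 5 samples) or 4200 m (hypoxia, 5 samples), and RNA was sequenced from whole tissue. No genotype other than the strain, and neither the age nor the sex of the mice, is given in the sources used here. The labels do not state that each sample is a separate mouse, so a p-value measures only the spread between these samples. Altitude and place of housing cannot be told apart.

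Glycolysis splits a glucose molecule into pyruvate in the cytosol and yields ATP without oxygen, and lactate dehydrogenase turns pyruvate into lactate and back. In the kidney the proximal tubule takes up and burns fatty acids and lactate, makes glucose, and breaks down fructose through ketohexokinase, whereas the distal segments and the medulla use glucose more. In many cell types low oxygen stabilises the hypoxia-inducible factors, which bind the short DNA words ACGTG or GCGTG and raise transcription of glycolytic genes such as Pgk1, Eno1 and Ldha.

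Levels are the authors' FPKM values, which scale reads by gene length and library size, so genes can be compared within a sample. Differences are hypoxia minus control after log2(FPKM + 0.5), and this scale shrinks the changes of weakly expressed genes. A gene was tested with limma where it averaged 0.5 FPKM or more over the 10 samples, and p-values were adjusted by Benjamini-Hochberg over all 15264 tested genes, with a threshold of 0.05. Of the 33 rows, 27 could be tested and 6 lay below the minimum.

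Depth was 16561672 to 17845464 reads assigned to genes per library. The extraction protocol in the labels speaks of retina, but 5 photoreceptor genes summed to 0.122 to 0.656 FPKM and Rcvrn was at 0 in every library, while 6 proximal tubule markers summed to 1308 to 1848 FPKM in controls. Hypoxia 4 and hypoxia 5 stood apart from the rest. Hypoxia 4 held 673 FPKM of adrenal cortex markers against 0.920 to 1.68 FPKM in the controls and hypoxia 1 to 3, and 12.0 FPKM in hypoxia 5. It also held 75.5 FPKM of adrenal medulla and nerve markers and 633 FPKM of fat markers, against at most 0.457 and 169 FPKM elsewhere. Hypoxia 5 held 6611 FPKM of erythroid, 1230 FPKM of myeloid and 344 FPKM of B-cell markers, against at most 666, 164 and 2.39 FPKM elsewhere, and its proximal tubule markers summed to 699.9 FPKM. For many of the results on which these libraries bear, the value for hypoxia 1 to 3 alone is given beside them. In whole tissue, fewer cells of a type and less RNA per cell cannot be told apart.

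Levels of 7 tested members fell in hypoxia (Khk, Pgk1, Pgam1, Eno1, Pklr, Ldha and Ldhd) and none rose by the limma test. At an unadjusted limma p under 0.05 the count was 12 members, of which 1 was higher, beside 4451 of all 15264 tested genes in either direction. The 7 lower calls are 25.9% of the 27 tested members, beside 7.79% of all tested genes called lower. No member was called higher, beside 3.66% of all tested genes, and 11.5% of all tested genes were called in either direction. The median log2 difference was -0.23 over the tested members and 0.012 over all tested genes, and 23 of 27 members had a negative difference. In 8 members every hypoxia sample lay below every control, which is 29.6% beside 8.54% of all tested genes, and in none did every hypoxia sample lie above, beside 5.68%. Without hypoxia 4 and 5, the limma test called 9 of 26 tested members lower and 0 higher, beside 7.75% and 4.53% of all tested genes. Those 9 were the same 7 genes with Bpgm and Slc16a1 added.

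The abundant members carried most of these calls. Of 12 members averaging 20 FPKM or more, 6 fell and all 12 had negative differences, with a median of -0.51. Of the 15 tested members below that level, 1 (Pklr) fell, and the median difference was -0.033. Calls among all tested genes were not counted by abundance, so this split is not read as particular to the members. Hypoxia 5 was the lowest of the 10 libraries in 14 of the 27 tested members and the highest in 4, and hypoxia 4 was the lowest in 1. The same count over all tested genes was not made, so these positions describe the libraries and not a trait of the members.

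**Figure D1:**
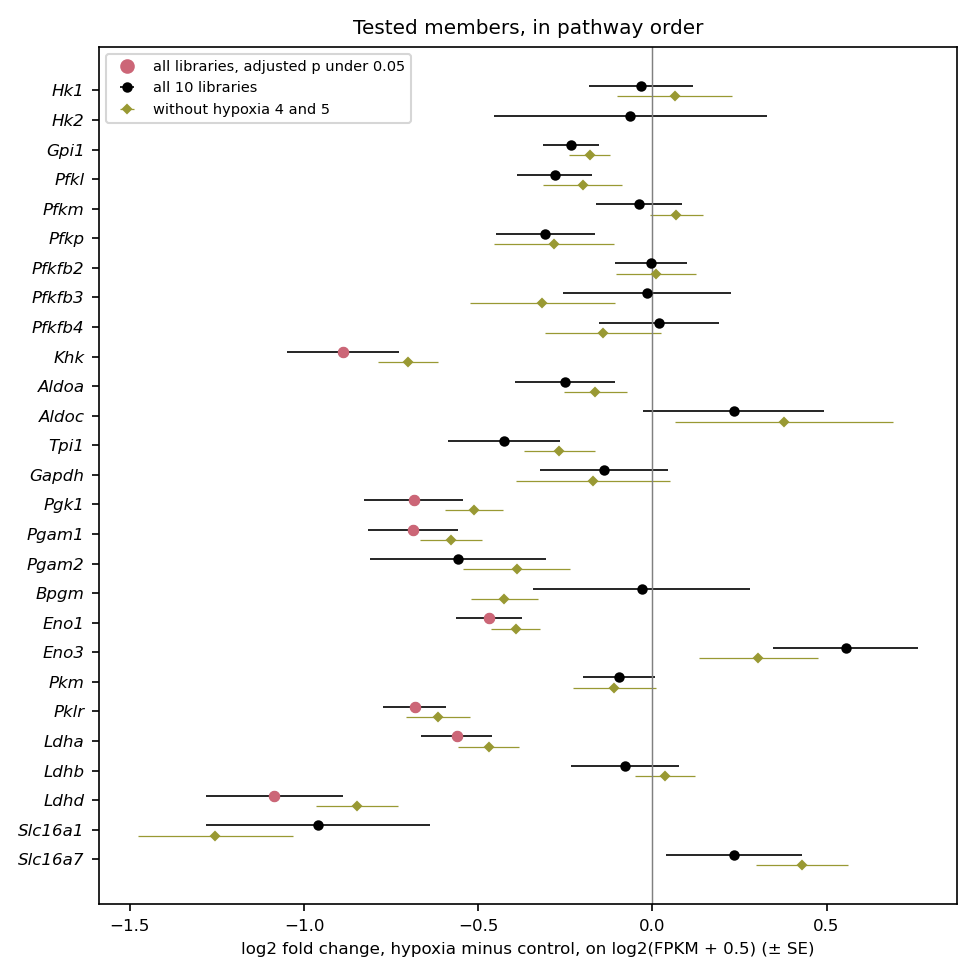
Log2 differences (hypoxia minus control, on the log2(FPKM + 0.5) scale) of the 27 tested members in order of enzyme step, with standard errors, over all 10 samples and without hypoxia 4 and 5. The 7 members called lower are marked and lie between -1.09 (Ldhd) and -0.47 (Eno1).

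Promoters of 4 of the fallen members, 2 of them classic targets of the hypoxia-inducible factors, are shown because they hold the words these factors can bind in genes that were lower in hypoxia. Each is the 250 bases before a RefSeq start on GRCm38.p6, written 5′ to 3′ on the gene's own strand, with ACGTG and GCGTG on either strand in capitals. Where ACGTG on both strands overlaps, it forms CACGTG, the E-box word that other factors bind as well.
Ldha (chr7:46845554-46845803, plus strand): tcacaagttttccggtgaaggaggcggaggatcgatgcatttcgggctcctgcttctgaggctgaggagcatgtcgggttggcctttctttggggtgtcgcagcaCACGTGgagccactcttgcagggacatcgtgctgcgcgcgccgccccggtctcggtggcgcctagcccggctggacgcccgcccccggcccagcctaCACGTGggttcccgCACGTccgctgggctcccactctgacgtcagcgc
Pgk1 (chrX:106186850-106187099, plus strand): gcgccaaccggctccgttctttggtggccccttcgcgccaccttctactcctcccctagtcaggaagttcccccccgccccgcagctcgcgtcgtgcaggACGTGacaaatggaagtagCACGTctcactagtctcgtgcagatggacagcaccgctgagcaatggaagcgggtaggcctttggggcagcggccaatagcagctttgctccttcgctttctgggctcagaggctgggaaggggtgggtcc
Khk (chr5:30921309-30921558, plus strand): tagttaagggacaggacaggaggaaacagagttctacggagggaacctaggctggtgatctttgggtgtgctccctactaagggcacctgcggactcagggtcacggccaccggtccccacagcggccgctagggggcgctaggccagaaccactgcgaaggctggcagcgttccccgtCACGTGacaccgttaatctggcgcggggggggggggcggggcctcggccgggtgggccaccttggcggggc
Ldhd (chr8:111630337-111630586, minus strand): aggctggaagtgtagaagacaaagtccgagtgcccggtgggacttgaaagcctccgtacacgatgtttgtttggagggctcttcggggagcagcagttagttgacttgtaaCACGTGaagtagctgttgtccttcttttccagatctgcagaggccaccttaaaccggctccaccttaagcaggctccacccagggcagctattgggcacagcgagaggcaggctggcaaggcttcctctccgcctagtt
Counting back from the start, CACGTG began at -145 and -48 in the Ldha window, at -71 in Khk and at -139 in Ldhd, and a further ACGTG lay at -34 in Ldha. The Pgk1 window had ACGTG at -150 and, on the opposite strand, at -131, without CACGTG. The Pgam1 window, not printed, had ACGTG at -114 and GCGTG at -175 and -88. Read in the same way, the Eno1 window had no ACGTG but GCGTG at -230, and the Pklr window had neither word. RefSeq windows were found for 31 of the 32 names, Slc16a7 having no entry. With both strands searched, ACGTG stood before 14 of the 31 members, 5 of the 7 fallen ones and 7 of the 19 tested members with a window that did not pass the test, against 18.5% of 27025 genes. CACGTG stood before 7 members, 3 of them fallen, against 6.86% of all genes. GCGTG stood before 16 members, 3 of them fallen, against 30.9%. These counts take a gene as holding a word where any of its RefSeq start windows does, and the GCGTG counted for Ldha lies in a window other than the one printed. A match in these windows describes letters only.

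Glucose is trapped in the cell by hexokinase. Hk1, the general isozyme, was the main form, with 15.1 ± 3.19 FPKM at 400 m and 14.6 ± 1.68 FPKM at 4200 m (SD, n = 5 each; log2 difference -0.033 (SE 0.149), limma adjusted p = 0.9). Its level differed by less than the spread between samples, and in hypoxia 1 to 3 alone the log2 difference was 0.063 (limma adjusted p = 0.839). Hk2, the insulin- and hypoxia-responsive isozyme, was low, with 0.611 ± 0.498 FPKM at 400 m and 0.581 ± 0.538 FPKM at 4200 m (log2 difference -0.063 (SE 0.392), limma adjusted p = 0.928). Its hypoxia 1 to 3 averaged 0.197 ± 0.0628 FPKM, 32.3% of control, while hypoxia 4 and 5 stood at 1.01 and 1.31 FPKM, and without those 2 libraries Hk2 lay below the minimum for testing. Hkdc1, a related protein, averaged 0.520 FPKM at 400 m and 0.334 FPKM at 4200 m and was below the minimum for testing. Hk3, the form of white blood cells, ranged from 0.0649 to 0.132 FPKM in controls and from 0.0775 to 0.199 FPKM in hypoxia 1 to 4, and stood at 2.76 FPKM in hypoxia 5. All 7 myeloid markers were present, summing to 58.2 to 78.4 FPKM in controls and to 64.8 to 164 FPKM in hypoxia 1 to 4, with none at 0 in most libraries. In hypoxia 5 they summed to 1230 FPKM, and their part in the Hk3 value was not tested. Summed over the 4 genes, hypoxia stood at 98.7% of control.

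Gpi1, which turns glucose 6-phosphate into fructose 6-phosphate, had 67.9, 68.6, 69.5, 66.6 and 65.1 FPKM in control 1 to 5 and 57.7, 59.0, 62.0, 60.8 and 48.4 FPKM in hypoxia 1 to 5. All hypoxia samples lay below all controls. The mean was 85.2% of control, but the difference did not pass the test (log2 difference -0.23 (SE 0.0798), limma adjusted p = 0.0833), nor did it without hypoxia 4 and 5 (adjusted p = 0.0746, limma). With hypoxia 5 alone left out it did (limma adjusted p = 0.0389).

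Phosphofructokinase commits the sugar to glycolysis, and its 3 subunits did not pass the test. The muscle-type subunit Pfkm, the most abundant, had 15.7 ± 0.883 FPKM at 400 m and 15.5 ± 2.84 FPKM at 4200 m (log2 difference -0.039 (SE 0.123), limma adjusted p = 0.854), and in hypoxia 1 to 3 alone its log2 difference was 0.069 (limma adjusted p = 0.596). The liver-type subunit Pfkl had 11.9 ± 1.58 FPKM at 400 m and 9.67 ± 1.21 FPKM at 4200 m (log2 difference -0.28 (SE 0.107), limma adjusted p = 0.112). The platelet-type subunit Pfkp had 4.55 ± 0.970 FPKM at 400 m and 3.53 ± 0.467 FPKM at 4200 m (limma adjusted p = 0.181) and was called lower only when control 5 was left out (limma adjusted p = 0.0446). Summed, the subunits stood at 89.3% of control. The PFKFB enzymes set the level of fructose 2,6-bisphosphate, the activator of phosphofructokinase. Pfkfb3, the form often induced by hypoxia, had 4.22 ± 1.05 FPKM at 400 m and 4.29 ± 1.69 FPKM at 4200 m (log2 difference -0.016 (SE 0.242), limma adjusted p = 0.971), and hypoxia 1 to 3 alone stood at 77.2% of control (limma adjusted p = 0.355). Pfkfb2, with 1.70 ± 0.243 FPKM at 400 m and 1.69 ± 0.128 FPKM at 4200 m (limma adjusted p = 0.984), and Pfkfb4, with 1.89 ± 0.425 FPKM at 400 m and 1.94 ± 0.567 FPKM at 4200 m (limma adjusted p = 0.951), also lay within their spread. Pfkfb1, the liver form, averaged 0.340 FPKM at 400 m and 0.465 FPKM at 4200 m, was untested, and reached 1.14 FPKM in hypoxia 4 alone, with hypoxia 1 to 3 at 87.0% of control.

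Khk, ketohexokinase, phosphorylates fructose and so feeds it into the triose part of glycolysis past phosphofructokinase (ENSMUSG00000029162, chr5:30921431-30931248, plus strand, GRCm38). It had 293, 341, 332, 309.7 and 316 FPKM in control 1 to 5 and 179, 219, 189.7, 178 and 112 FPKM in hypoxia 1 to 5. Every hypoxia sample lay below every control, and hypoxia 5 was the lowest. The level fell to 55.1% of control (log2 difference -0.89 (SE 0.16), limma adjusted p = 0.00816). In hypoxia 1 to 3 alone it stood at 61.5% of control (log2 difference -0.70, limma adjusted p = 0.00224). The gene held 3666 to 10115 reads per library, so counting error was small beside the difference. The sum of 6 proximal tubule markers was 1308 to 1848 FPKM in controls, 1350 to 1600 FPKM in hypoxia 1 to 3, 1351 FPKM in hypoxia 4 and 699.9 FPKM in hypoxia 5. Of these markers Slc5a2, the main glucose cotransporter, was at 92.4 to 157 FPKM in controls and at 76.9, 89.8, 84.3, 82.6 and 32.8 FPKM in hypoxia 1 to 5, below every control. The other markers on this list, Slc34a1, Lrp2, Cubn, Slc4a4 and Hnf4a, overlapped between the groups, with hypoxia 5 the lowest library in each. Lrp2 and Hnf4a were highest in hypoxia 3, at 188 and 198 FPKM, and Slc34a1 and Slc4a4 were highest in control 5. The part of proximal tubule content in the Khk values was not tested.

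The other genes of glucose and fructose entry placed this in context. Of 10 listed, 8 were tested, with 1 lower, 1 higher (beside 7.79% and 3.66% of all tested genes) and a median difference of -0.30, or -0.15 without hypoxia 4 and 5, where the counts were again 1 and 1. Tkfc, triokinase, which phosphorylates the glyceraldehyde made from fructose, had 72.8, 93.3, 94.1, 84.0 and 95.4 FPKM in control 1 to 5 and 49.7, 52.2, 43.3, 42.3 and 28.8 FPKM in hypoxia 1 to 5. The groups did not overlap, and the level fell to 49.2% of control (log2 difference -1.04 (SE 0.154), limma adjusted p = 0.00377), and also in hypoxia 1 to 3 alone (log2 difference -0.85, limma adjusted p = 0.00225). The fructose transporter Slc2a5 had 29.0 ± 4.4 FPKM at 400 m and 20.3 ± 5.94 FPKM at 4200 m (limma adjusted p = 0.101). Sord, which makes fructose from sorbitol, had 653 ± 52.0 FPKM at 400 m and 612 ± 173 FPKM at 4200 m (limma adjusted p = 0.658). In hypoxia 1 to 3 alone Slc2a5 stood at 76.3% of control (limma adjusted p = 0.143) and Sord at 110% (limma adjusted p = 0.334). Both kinases of fructose breakdown thus fell, while this transporter and Sord were not called, and the difference between their changes was not tested. Slc2a9, a urate transporter of the glucose transporter family, had 3.70, 3.49, 3.50, 3.22 and 3.75 FPKM in control 1 to 5 and 4.80, 5.32, 5.67, 6.26 and 4.38 FPKM in hypoxia 1 to 5. All hypoxia samples lay above all controls, and it rose (log2 difference 0.51 (SE 0.0931), limma adjusted p = 0.00816), also without hypoxia 4 and 5 (log2 difference 0.51, limma adjusted p = 0.00538).

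**Figure D2:**
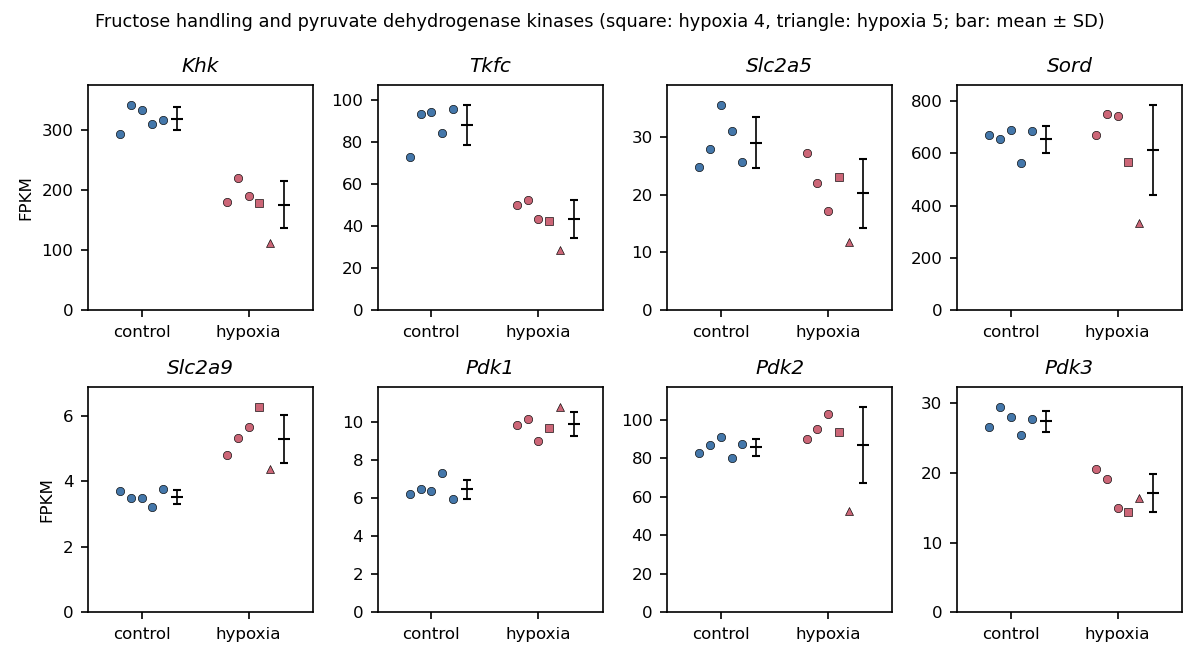
FPKM in each sample of fructose-handling genes and the pyruvate dehydrogenase kinases Pdk1, Pdk2 and Pdk3, with hypoxia 4 as a square, hypoxia 5 as a triangle and bars for mean ± SD. Khk, Tkfc and Pdk3 lie lower in all 5 hypoxia samples than in any control, Slc2a9 and Pdk1 lie higher, and Slc2a5, Sord and Pdk2 overlap.

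Aldoa, Aldoc and Tpi1, in the middle of the pathway, did not pass the test. Aldoa, the general aldolase, had 269.9, 262, 247, 255 and 238 FPKM in control 1 to 5 and 200.05, 228, 256, 253 and 149.8 FPKM in hypoxia 1 to 5. Hypoxia 3 and 4 lay among the controls and hypoxia 5 far below the rest (log2 difference -0.25 (SE 0.144), limma adjusted p = 0.267). In hypoxia 1 to 3 alone Aldoa stood at 89.6% of control (limma adjusted p = 0.266). The second row named Aldoa (ENSMUSG00000114515) had 2 to 10 reads per library and was not tested. Aldoc, the brain form, had 4.11 ± 1.68 FPKM at 400 m and 4.67 ± 0.995 FPKM at 4200 m (limma adjusted p = 0.566). Tpi1, which interconverts the trioses, had 269, 258, 239, 202 and 229 FPKM in control 1 to 5 and 192, 213, 189.9, 192 and 117 FPKM in hypoxia 1 to 5. Control 4 lay below 1 hypoxia sample, hypoxia 2, so the groups overlapped. The mean was 75.5% of control (log2 difference -0.43 (SE 0.16), limma adjusted p = 0.11), and 82.8% for hypoxia 1 to 3 (limma adjusted p = 0.120).

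Gapdh, glyceraldehyde-3-phosphate dehydrogenase, is among the most abundant transcripts of most cells, but its row held only 1.53 ± 0.50 FPKM at 400 m and 1.31 ± 0.264 FPKM at 4200 m (59 to 161 reads per library; limma adjusted p = 0.635). The annotation has 78 copies of its transcript at 95% identity or more over at least 200 bases, covering 88.0% of it, and these copies held 83.3% of the summed reads in controls and 80.7% in hypoxia. Own and copied reads together came to 398 to 769 per library. How reads that match several copies were counted is not given in the sources used here. The value of this row is therefore uncertain and is not read as the level of the gene. The same gap applies to other members with copies, which cover 68.8% of the Pgk1 transcript, 85.6% of Eno1, 55.0% of Ldha and 76.8% of Ldhb. They also cover 65.5% of Pkm, 50.2% of Gpi1, 43.1% of Pgam1 and 19.3% of Tpi1. For these, the share of reads held by copies does not show how many shared reads went uncounted.

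Pgk1, Pgam1 and Eno1, which catalyse consecutive late steps, all fell. Pgk1, phosphoglycerate kinase, makes the first ATP of the pathway (ENSMUSG00000062070, chrX:106187100-106203699, plus strand). It had 275, 268, 249, 226 and 259 FPKM in control 1 to 5 and 177, 191, 168, 157 and 111 FPKM in hypoxia 1 to 5. No hypoxia sample reached the lowest control, and the level fell to 63.0% of control (log2 difference -0.69 (SE 0.142), limma adjusted p = 0.0142), and to 70.0% for hypoxia 1 to 3 (log2 difference -0.51, limma adjusted p = 0.00715). Near-identical copies held under 1% of its reads.

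Pgam1, the general phosphoglycerate mutase (ENSMUSG00000011752, chr19:41911923-41918660, plus strand), had 135, 154, 144, 119 and 146 FPKM in control 1 to 5 and 94.8, 92.4, 91.5, 94.8 and 62.3 FPKM in hypoxia 1 to 5. Hypoxia 1 to 4 lay within a few FPKM of each other, below all controls, and hypoxia 5 lower again. The level fell to 62.5% of control (log2 difference -0.69 (SE 0.131), limma adjusted p = 0.01), also in hypoxia 1 to 3 alone (log2 difference -0.58, limma adjusted p = 0.00533). Its copy Pgam1-ps2 went from 6.99 to 3.32 FPKM, and copies together held 1.90% of the reads in controls and 1.45% in hypoxia. Pgam2, the muscle mutase, had 60.6, 48.1, 49.7, 37.4 and 53.9 FPKM in control 1 to 5 and 31.9, 38.0, 43.6, 46.6 and 16.7 FPKM in hypoxia 1 to 5. Its groups overlapped and the difference did not pass the test (log2 difference -0.56 (SE 0.253), limma adjusted p = 0.173). In hypoxia 1 to 3 alone Pgam2 stood at 75.8% of control (limma adjusted p = 0.134). The skeletal muscle markers Acta1, Ckm and Myh4 were at 0 in at least 5 of the 10 libraries, and the 7 muscle markers summed to at most 2.93 FPKM, far below Pgam2. The sum of both mutases averaged 189 FPKM at 400 m and 123 FPKM at 4200 m, without overlap.

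Bpgm makes 2,3-bisphosphoglycerate, which lowers the oxygen affinity of haemoglobin, and is best known from red cells. It had 16.1, 17.3, 15.3, 14.9 and 14.2 FPKM in control 1 to 5 and 12.1, 12.6, 9.75, 13.3 and 40.2 FPKM in hypoxia 1 to 5. The controls lay close together, hypoxia 1 to 4 lay below all of them, and hypoxia 5 lay far above every other library. Over all samples the difference did not pass the test (log2 difference -0.031 (SE 0.311), limma adjusted p = 0.956), while hypoxia 1 to 3 alone were lower (11.5 ± 1.54 FPKM, n = 3; log2 difference -0.43, limma adjusted p = 0.0235), as they were with hypoxia 4 when hypoxia 5 alone was left out (limma adjusted p = 0.0213). The 6 erythroid markers, all detected, summed to 218 to 610 FPKM in controls, 83.6 to 501 FPKM in hypoxia 1 to 3, 666 FPKM in hypoxia 4 and 6611 FPKM in hypoxia 5. Their part in the Bpgm values was not tested.

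**Figure D3:**
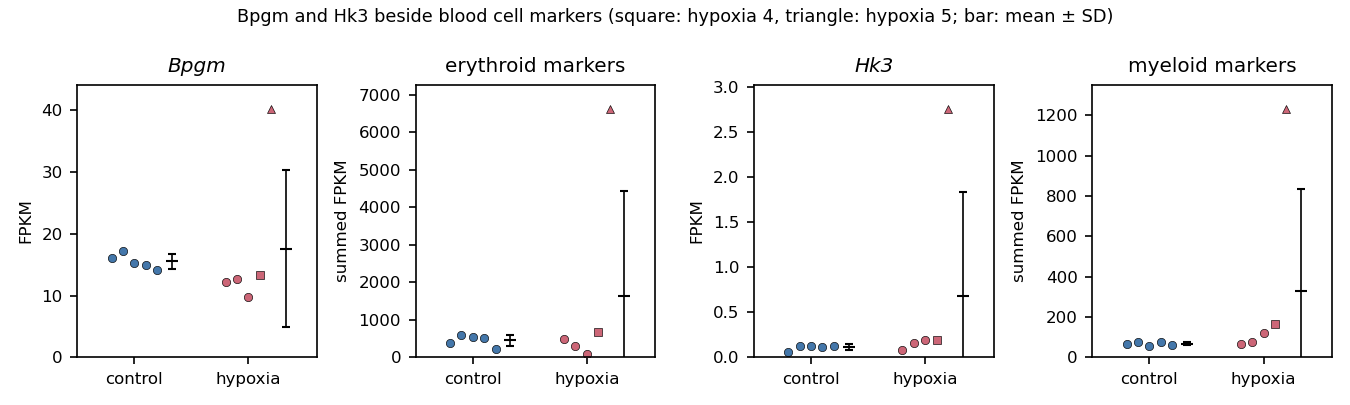
FPKM of Bpgm and Hk3 in each sample beside the summed FPKM of erythroid and myeloid markers, with mean ± SD bars that are drawn to 0 where they would pass below it. Hypoxia 5 (triangle) is far above all other samples in each panel, with 40.2 FPKM of Bpgm and 2.76 FPKM of Hk3.

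Eno1, the general enolase, makes phosphoenolpyruvate (ENSMUSG00000063524, chr4:150236721-150248879, plus strand). It had 153, 177, 164, 161 and 160.2 FPKM in control 1 to 5 and 130.5, 117, 125, 122 and 97.1 FPKM in hypoxia 1 to 5. The groups did not overlap, and the level fell to 72.5% of control (log2 difference -0.47 (SE 0.0947), limma adjusted p = 0.0131), also in hypoxia 1 to 3 alone (log2 difference -0.39, limma adjusted p = 0.0106). Copies cover 85.6% of its transcript but held 4.37% of the reads in controls and 4.60% in hypoxia. Of these, Eno1b had 15.3 FPKM at 400 m and 12.4 FPKM at 4200 m. Eno3, the muscle enolase, had 1.98 ± 0.564 FPKM at 400 m and 3.19 ± 1.15 FPKM at 4200 m, and its unadjusted p of 0.0227 by limma became an adjusted p of 0.109. Hypoxia 1 to 3 alone stood at 126% of control, against 161% for all 5 (limma adjusted p = 0.280 for the former). It was the 1 member higher before adjustment. Eno2, the neuronal enolase, averaged 0.182 FPKM at 400 m and 0.384 FPKM at 4200 m and was not tested. Summed over the enolases, hypoxia stood at 73.7% of control.

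Pyruvate kinase makes pyruvate and ATP. Pklr, the form of liver, kidney tubule and red cells (ENSMUSG00000041237, chr3:89136142-89146784, plus strand), had 12.3, 14.7, 14.8, 16.1 and 16.6 FPKM in control 1 to 5 and 9.43, 9.56, 9.57, 7.75 and 9.12 FPKM in hypoxia 1 to 5. The groups did not overlap. The level fell to 60.9% of control (log2 difference -0.68 (SE 0.0912), limma adjusted p = 0.00219), also in hypoxia 1 to 3 alone (log2 difference -0.61, limma adjusted p = 0.00514), on 445 to 949 reads per library. Its lowest library was hypoxia 4, not hypoxia 5. Pkm, the general isozyme, had 61.3, 47.9, 47.6, 56.8 and 42.3 FPKM in control 1 to 5 and 43.2, 47.9, 50.3, 49.8 and 46.5 FPKM in hypoxia 1 to 5. Its hypoxia samples lay inside the control range and did not pass the test (log2 difference -0.096 (SE 0.104), limma adjusted p = 0.559).

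**Figure D4:**
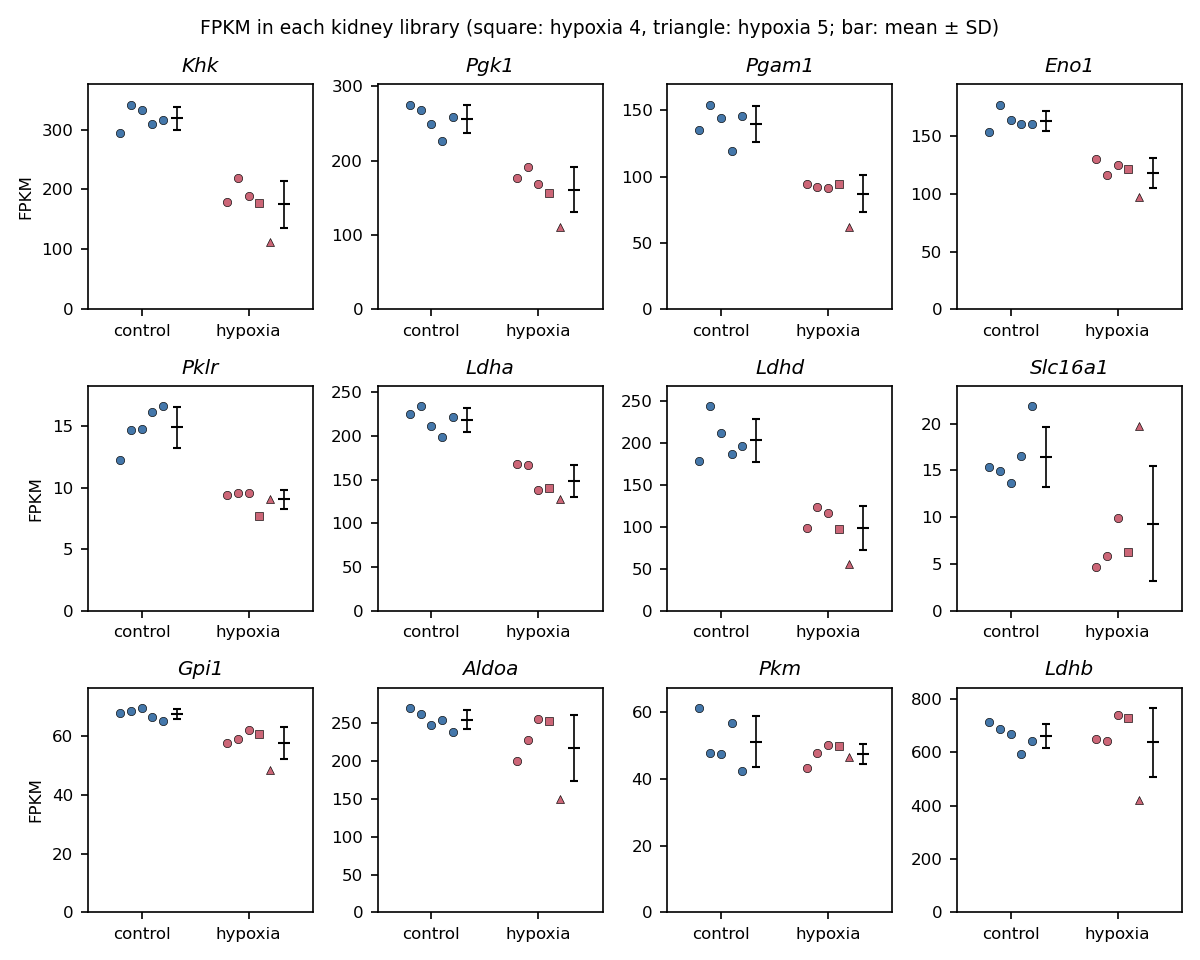
FPKM in each sample of 12 members, with hypoxia 4 as a square, hypoxia 5 as a triangle and bars for mean ± SD. The 7 members called lower and Gpi1 separate the groups fully, whereas Slc16a1, Aldoa, Pkm and Ldhb overlap.

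Lactate dehydrogenase is a tetramer of A and B subunits, the B form being typical of oxidative tissue. Ldha (ENSMUSG00000063229, chr7:46841475-46855627, plus strand) had 225, 233, 211, 199 and 222 FPKM in control 1 to 5 and 167, 167, 138, 140.4 and 128 FPKM in hypoxia 1 to 5. All hypoxia samples lay below all controls, and the level fell to 67.9% of control (log2 difference -0.56 (SE 0.101), limma adjusted p = 0.00793), also in hypoxia 1 to 3 alone (log2 difference -0.47, limma adjusted p = 0.0121). Near-identical copies held under 0.1% of its reads. Ldhb, the most abundant member, had 712, 687, 666, 594 and 643 FPKM in control 1 to 5 and 650.0, 642, 740.1, 729 and 420.4 FPKM in hypoxia 1 to 5. Hypoxia 3 and 4 were the highest libraries of all and hypoxia 5 the lowest, and the difference did not pass the test (log2 difference -0.079 (SE 0.155), limma adjusted p = 0.76), with a log2 difference of 0.036 in hypoxia 1 to 3 alone (limma adjusted p = 0.821). The sum of both subunits averaged 878 FPKM at 400 m and 785 FPKM at 4200 m.

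Ldhd, the mitochondrial dehydrogenase of D-lactate, had the largest log2 difference of the tested members over all 10 samples (ENSMUSG00000031958, chr8:111623785-111630374, minus strand). Slc16a1 had a larger one without hypoxia 5, and without hypoxia 4 and 5. It had 178, 244, 212, 187 and 197 FPKM in control 1 to 5 and 98.2, 123, 116, 97.7 and 56.2 FPKM in hypoxia 1 to 5. The groups did not overlap, and the level fell to 48.4% of control (log2 difference -1.09 (SE 0.197), limma adjusted p = 0.00821), and to 55.4% in hypoxia 1 to 3 (log2 difference -0.85, limma adjusted p = 0.00352). The order of samples was like that of Khk, with hypoxia 2 the highest and hypoxia 5 the lowest of the hypoxia group. Pgk1, Tpi1 and Tkfc had the same highest and lowest hypoxia samples, so this is not particular to Ldhd and Khk. Its gene overlaps Znrf1 on the opposite strand over 2246 bases. Znrf1 averaged 2.82 FPKM at 400 m and 2.58 FPKM at 4200 m, far below Ldhd. Some other members overlap genes as high as or higher than themselves on the opposite strand. Yod1 (1.81 FPKM at 400 m, 1.99 at 4200 m) shares 7032 bases with Pfkfb2, Pitrm1 (13.5 and 17.7) 748 with Pfkp, and Apex2 (1.38 and 1.30) 1640 with Pfkfb1. On the same strand, Gm49759 (1.38 and 1.82 FPKM) shares 3887 bases with Pkm. How such reads were counted is not given in the sources used here.

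Isoform shares within a sample do not depend on library scaling. The share of Ldha in Ldha plus Ldhb was 24.0, 25.4, 24.1, 25.1 and 25.6% in control 1 to 5 and 20.5, 20.6, 15.8, 16.1 and 23.3% in hypoxia 1 to 5. All hypoxia samples lay below all controls. The mean went from 24.8 ± 0.744% to 19.3 ± 3.22% (SD, n = 5), a difference of -5.58 points (exact two-sided permutation test over 252 regroupings, p = 0.00794, adjusted over 5 shares 0.0397). That p is the smallest the design allows. In hypoxia 1 to 3 alone the difference was -5.88 points (exact permutation adjusted p = 0.0893, where the unadjusted p of 0.0179 is the smallest that 56 regroupings allow).

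The share of Pkm in Pkm plus Pklr was 83.3, 76.5, 76.3, 77.9 and 71.8% in control 1 to 5 and 82.1, 83.4, 84.0, 86.5 and 83.6% in hypoxia 1 to 5. Control 1 lay among the hypoxia samples and the other controls lay below them. The mean rose from 77.1 ± 4.12% to 83.9 ± 1.63% (SD, n = 5), by 6.77 points (exact two-sided permutation p = 0.0159, adjusted 0.0397). In hypoxia 1 to 3 alone it was 6.00 points higher (exact permutation adjusted p = 0.149), and without any 1 of hypoxia 2 to 5 the exact permutation adjusted p was 0.0595. The share of Pfkl among phosphofructokinases, 36.8 ± 1.86% in controls and 33.9 ± 2.67% in hypoxia, did not pass the test (exact permutation adjusted p = 0.198). Hk1 made up 92.2 ± 3.67% of the hexokinases in controls and 90.4 ± 7.94% in hypoxia (exact permutation adjusted p = 0.754), with its lowest value, 77.4%, in hypoxia 5. In hypoxia 1 to 3 alone the Hk1 share lay 3.32 points above control (exact permutation adjusted p = 0.290), and without hypoxia 5 alone 1.53 points above.

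**Figure D5:**
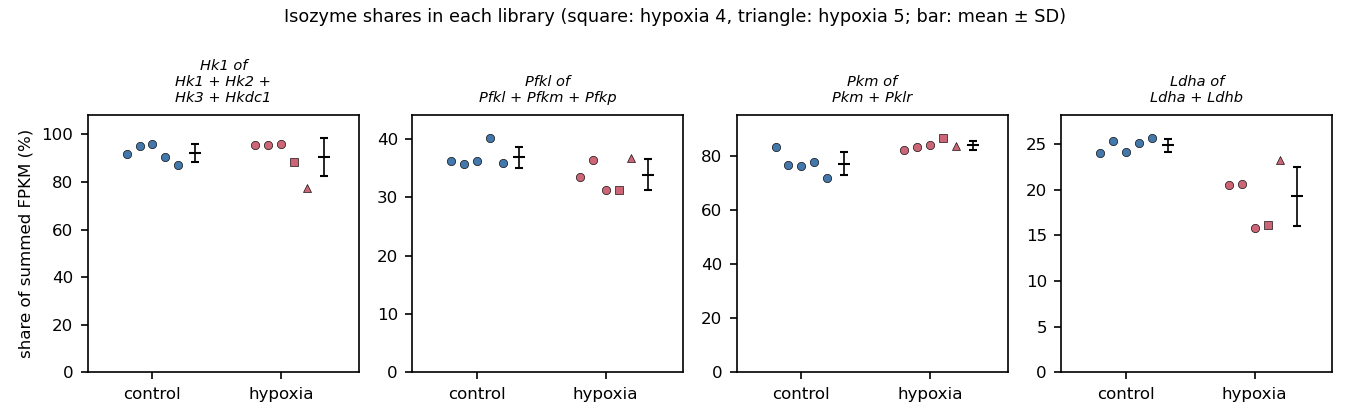
Share of one isozyme in the summed FPKM of its step in each sample, in percent, with hypoxia 4 as a square, hypoxia 5 as a triangle and bars for mean ± SD. The Ldha share separates the groups (24.0 to 25.6% against 15.8 to 23.3%), and the Pkm share is higher in hypoxia with control 1 overlapping.

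Monocarboxylate transporters carry lactate and pyruvate across the cell membrane. Slc16a1 (MCT1) ranged from 13.6 to 21.8 FPKM in controls, and stood at 4.70, 5.87, 9.90, 6.26 and 19.7 FPKM in hypoxia 1 to 5. Hypoxia 1 to 4 lay below all controls and hypoxia 5 among them. The difference over all samples did not pass the test (log2 difference -0.96 (SE 0.321), limma adjusted p = 0.0791), while in hypoxia 1 to 3 alone the level fell to 41.5% of control (log2 difference -1.25, limma adjusted p = 0.0103), as it did without hypoxia 5 alone (limma adjusted p = 0.00306). Slc16a7 (MCT2), a high-affinity carrier, had 18.0 ± 2.85 FPKM at 400 m and 21.7 ± 5.58 FPKM at 4200 m (limma adjusted p = 0.442). In hypoxia 1 to 3 all values lay above the controls, with a log2 difference of 0.43 that did not pass the test (limma adjusted p = 0.066), and in hypoxia 5 it stood below them, at 12.4 FPKM. With hypoxia 5 alone left out, Slc16a7 was called higher (log2 difference 0.42, limma adjusted p = 0.0332). Slc16a3 (MCT4), the lactate exporter of glycolytic cells, averaged 0.261 FPKM at 400 m and 0.353 FPKM at 4200 m, or 0.223 FPKM in hypoxia 1 to 3, and was not tested. It overlaps Csnk1d on the opposite strand, and how the counting used strand is not given in the sources used here. Slc16a1 made up 47.4 ± 7.66% of the 3 carriers in controls and 29.1 ± 17.9% in hypoxia.

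Of the neighbouring genes of pyruvate and lactate use, all 15 were tested, with 2 lower, 2 higher (beside 7.79% and 3.66% of all tested genes) and a median difference of -0.25. Without hypoxia 4 and 5 the counts were 3 lower and 1 higher, beside 7.75% and 4.53%, with a median of -0.083. Pdk1, a kinase that switches off pyruvate dehydrogenase and is a known target of hypoxia-inducible factor, had 6.22, 6.5, 6.37, 7.32 and 5.95 FPKM in control 1 to 5 and 9.88, 10.2, 9.04, 9.71 and 10.8 FPKM in hypoxia 1 to 5. All hypoxia samples lay above all controls, and it rose (log2 difference 0.58 (SE 0.0707), limma adjusted p = 0.0014), also in hypoxia 1 to 3 alone (log2 difference 0.55, limma adjusted p = 0.00383). Pdk3, another such kinase, had 26.5, 29.3, 28.0, 25.3 and 27.6 FPKM in control 1 to 5 and 20.6, 19.1, 14.9, 14.3 and 16.3 FPKM in hypoxia 1 to 5. All hypoxia samples lay below all controls, and it fell (log2 difference -0.68 (SE 0.102), limma adjusted p = 0.004), also in hypoxia 1 to 3 alone (log2 difference -0.59, limma adjusted p = 0.00882). The 2 kinases thus moved in opposite directions, and the kinase Pdk2, the most abundant, had 85.7 ± 4.20 FPKM at 400 m and 86.8 ± 19.8 FPKM at 4200 m with no call. In hypoxia 1 to 3 alone Pdk2 stood at 112% of control, also without a call (limma adjusted p = 0.173). Pdk4, the kinase that rises in fasting, had 23.2 ± 7.89 FPKM at 400 m and 13.5 ± 6.41 FPKM at 4200 m and did not pass the test (log2 difference -0.81 (SE 0.308), limma adjusted p = 0.111), nor did it without hypoxia 4 and 5, at 48.7% of control (limma adjusted p = 0.0643). Pdp1, a phosphatase that reactivates pyruvate dehydrogenase, rose from 1.88 ± 0.302 to 2.57 ± 0.150 FPKM (limma adjusted p = 0.0405), but not without hypoxia 4 and 5 (limma adjusted p = 0.0973), nor without any 1 of control 1, 3 and 5 and hypoxia 1 to 4 (limma adjusted p up to 0.0943). Pdp2, the other such phosphatase, had 14.2 ± 2.19 FPKM at 400 m and 9.95 ± 2.83 FPKM at 4200 m, which did not pass the test (limma adjusted p = 0.0890), and was called lower without hypoxia 4 and 5 (log2 difference -0.50, limma adjusted p = 0.038). Tigar, which breaks down fructose 2,6-bisphosphate, fell from 2.61 ± 0.316 to 1.77 ± 0.382 FPKM (limma adjusted p = 0.0415), also without them (limma adjusted p = 0.00915), but not without any 1 of control 2 to 5 and hypoxia 1 to 3 (limma adjusted p up to 0.0961). Bsg, the chaperone that brings MCT1 to the membrane, lay lower in all hypoxia samples than in any control, at 281 ± 15.3 FPKM at 400 m and 223 ± 28.1 FPKM at 4200 m, without passing the test (limma adjusted p = 0.0649).

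By enzyme step, the summed levels in hypoxia ranged from 48.4% of control for D-lactate dehydrogenase and 55.1% for ketohexokinase to 113% for bisphosphoglycerate mutase. The upper steps stood at 98.7% (hexokinase), 85.2% (glucose-6-phosphate isomerase), 89.3% (phosphofructokinase) and 85.9% (Aldoa and Aldoc). Triosephosphate isomerase, which follows them, stood at 75.5%. The PFKFB regulators stood at 103%, and the Gapdh row, not read as the level of the gene, at 85.7%. The lower steps stood at 63.0% (phosphoglycerate kinase), 64.7% (phosphoglycerate mutase), 73.7% (enolase) and 85.6% (pyruvate kinase). L-lactate dehydrogenase stood at 89.3% and the monocarboxylate transporters at 90.4%. In hypoxia 1 to 3 alone the bisphosphoglycerate mutase step was at 73.9%, the PFKFB regulators at 85.0% and the others between 55.4% and 99.3%. These sums were described without a test.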

How the data were processed

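Kidney RNA-seq of 5 control and 5 hypoxia samples was analysed from the gene table of FPKM values that the authors deposited. The submitters' processing notes name the aligner HISAT2 2.0.5 and list the human build hg38, although the deposited table holds mouse gene IDs. Of these IDs 55227 were found in a GRCm38 annotation, 99.4% with identical coordinates. Counting tool, strand setting and annotation: not given in the sources used here. Gene length in bases, the other quantity the authors deposited per gene, was used with FPKM to recover reads, and all values came out whole within 0.05 reads. The library sizes implied by the FPKM values, 16417804 to 18228173 reads, make 3 reads on a 1 kb gene worth 0.165 to 0.183 FPKM. These sizes lay below the reads assigned to genes in control 1, 2, 3 and 5 and in hypoxia 3, and above them in the other libraries. How the authors set this scaling is not given in the sources used here. Rows without a gene name numbered 465.

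limma 3.58.1 (R 4.3.3, trend and robust) tested log2(FPKM + 0.5) by group for genes averaging 0.5 FPKM or more. The script was tested on simulated data. Isoform shares were tested by exact permutation over samples. Of 5 shares tested, 1 is not reported here, and neither are some genes of the neighbouring lists. Copies of members were searched with blastn 2.17.0. Every member is named, with values in every sample for those past the threshold or averaging 20 FPKM or more, and up to 5 called genes of each neighbouring list; Slc2a5, Sord, Pdk2, Pdk4, Pdp2, Slc5a2 and Bsg were named after their values were seen. Members and lists were chosen with earlier results of these data known. Alternatives were other scalings, pseudocounts, filters, voom on recovered reads, a replicate block, and leaving out libraries. Replicate numbers did not pair the samples. No libraries were duplicates.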

Additional observations from a re-analysis of the deposited data

Results flagged for a closer look

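In 74 groups of 5 values (each member in each group, and the shares), 9 single libraries stood far from the others of their group, and chance flags about 1 in 20 such groups. Hypoxia 5 accounted for 4 of them. Its Bpgm was 40.2 FPKM with the next value at 13.3 FPKM, its Hk3 was 2.76 FPKM with the next at 0.199 FPKM, its Tpi1 was 117 FPKM with the next at 189.9 FPKM, and its Pgam1 was 62.3 FPKM with the next at 91.5 FPKM. Hypoxia 4 was far from the rest in Pfkfb1, at 1.14 FPKM with the next at 0.356 FPKM, and in Pklr, at 7.75 FPKM with the next at 9.12 FPKM. Among controls, Hk3 in control 1 was 0.0649 FPKM with the next at 0.120 FPKM, Pfkfb4 in control 2 was 2.64 FPKM with the next at 1.78 FPKM, and the Pfkl share in control 4 was 40.1% with the next at 36.3%.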

How the results depend on the processing

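The 7 lower members (Khk, Pgk1, Pgam1, Eno1, Pklr, Ldha and Ldhd) were called lower by limma in each of 19 alternatives, and no called value changed sign. Members called lower ranged from 7 to 10 and those called higher from 0 to 1 when 1 library was left out. Without hypoxia 5 there were 10 and 1, adding Gpi1, Bpgm and Slc16a1 as lower and Slc16a7 as higher, and without control 5 there were 8, adding Pfkp. Of the neighbours, Pdp1 lost its call in 10 alternatives and Tigar in 11, while Khk's neighbours Tkfc and Slc2a9 and the kinases Pdk1 and Pdk3 lost theirs in none. Members without a call, such as Pfkfb2 (9 alternatives) and Pfkfb3 (8), changed sign around 0.

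All genes called numbered 1748, of which 1189 were lower and 559 higher. The count was 966 with no filter and 999 with the replicate block, and it ran from 824 (without control 1) to 2724 (without hypoxia 5) when 1 library was left out. The replicate block, whose numbers did not pair the samples (same-number correlations from -0.077 to 0.086, and only replicate 2 correlating best with its own number), called the same 7 members. Scaling without the 100 most abundant genes moved the median log2 difference of all genes from 0.012 to 0.076 and gave 770 lower and 919 higher. The voom fit, which scales by the recovered reads and not by the authors' library size, moved it to 0.084 and gave 923 and 791. The cause was not tested.

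For the Ldha share, a sign-flip test within the replicate block gave -5.58 points (exact permutation adjusted p = 0.312, a test that cannot go below 0.0625 before adjustment), and without hypoxia 4 and 5 -5.88 points (exact permutation adjusted p = 0.0893). For the Pkm share, the block gave 6.77 points (exact permutation adjusted p = 0.312), a pseudocount of 0.5 FPKM gave 6.59 points (adjusted p = 0.0595), and without hypoxia 4 and 5 it was 6.00 points (adjusted p = 0.149). With 1 library left out the Pkm share differed by 5.44 to 8.31 points, with an exact permutation adjusted p of up to 0.0595 (without hypoxia 2, 3, 4 or 5), and the Ldha share by -6.58 to -4.70 points. Smaller groups have fewer regroupings. Low members (Hk3, Hkdc1, Pfkfb1, Slc16a3, Eno2) rest on few reads.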
